A study of Mus musculus with 58 samples.

Results

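The genes of the cytosolic ribosomal proteins were followed in single mouse retinas over a day, in control and diabetic animals. A gene was taken when its symbol was *Rps* or *Rpl* with a number and at most 1 closing letter a, x or l with digits, or was *Rplp0*, *Rplp1*, *Rplp2* or *Rpsa*, which gave 88 of the 52459 symbols in the count table. Of these, 81 had a median above 4 normalised read counts (counts divided by the size factor of the library) and were tested, 33 of the 40S subunit and 48 of the 60S subunit with its stalk. The rule also took in 7 paralogs, among them *Rpl22l1*, *Rpl7l1*, *Rps27l* and the transcribed pseudogene *Rps4l*, which were kept in all counts.

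The diabetic mice were 4 month old males with 1 copy of the Ins2Akita mutation (C57BL/6-Ins2Akita/J), in which misfolded insulin damages the pancreatic beta cells, so that the whole animal is hyperglycemic. The controls were wild-type male littermates (C57/BL/6) of the same age, and both groups lived in 12 h of light and 12 h of darkness. Retinas were collected at Zeitgeber time (ZT) 1, 5, 9, 13, 17 and 21, counted from lights on at ZT0 with lights off at ZT12, with 5, 6, 5, 5, 5 and 4 control libraries and 5, 5, 5, 4, 4 and 5 diabetic libraries in that order, 30 and 28 in all. Ribosomal RNA was depleted from total RNA before sequencing, and night samples were dissected under dim red light after perfusion of the animals.

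A ribosome holds 1 copy of nearly every ribosomal protein, 40S proteins around the decoding site and 60S proteins around the site where peptide bonds form, with the acidic stalk proteins recruiting the translation factors. Their mRNAs usually begin with a C followed by pyrimidines, the 5′ terminal oligopyrimidine (TOP) tract, through which LARP1 and the mTORC1 kinase control their translation. Many of these genes carry small nucleolar RNAs in their introns and have left many processed pseudogenes in the genome.

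To show this feature, RefSeq sequence around the transcription start (GRCm38.p6) was searched on the gene's own strand for a stretch of C and T that begins with C, whether or not more C or T precede it; the opposite strand was not searched, since the tract is a feature of the RNA. A sequence was given for 63 of the 88 genes, with 75 starts. A stretch of at least 5 bases read from the start itself was present at 17.3% of these starts, against 2.51% of all 32851 starts, and a stretch of at least 6 bases read from a C within 5 bases of the start at 36.0% against 10.2%. The 6 windows printed here belong to genes whose counts passed a test below and have both kinds of stretch. Each has 12 bases before the start and 18 from it on, and capitals mark the stretch from the first matching C within 5 bases of the start.
Rps6 (chr4:86857350-86857379, minus strand): cggaagtcgggCCTCTTTTTCgtgacgcct
Rpl14 (chr9:120571505-120571534, plus strand): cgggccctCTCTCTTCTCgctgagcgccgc
Rpl28 (chr7:4792953-4792982, plus strand): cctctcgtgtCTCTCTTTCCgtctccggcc
Rpl35 (chr2:39005114-39005143, minus strand): ccccgccCTTTCCTCTTTCTCTCgaaccag
Rplp2 (chr7:141447639-141447668, plus strand): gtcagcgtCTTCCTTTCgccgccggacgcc
Rps10 (chr17:27635227-27635256, minus strand): ccgcgcacgCCCCTTCCTTTCCagcctccg
By this choice all 6 have pyrimidines at the annotated start, and in all 6 the stretch also reaches before it. In *Rpl14*, *Rpl35*, *Rpl28* and *Rplp2* C or T also stands directly before the capitals.

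Libraries held 7773117 to 22147398 counted reads, of which the 88 genes took 0.398% to 0.593%. All 5 rod markers and all 5 cone markers were present in the libraries, with rod markers summing to between 480563 and 736787 normalised counts. The blood markers summed to at most 190.0 normalised counts in a library. Cryaa, a crystallin of the lens, exceeded 10000 normalised counts in 3 libraries, all control: ZT1 replicate 6, ZT17 replicate 5 and ZT21 replicate 2. In 5 others, control ZT9 replicate 4, control ZT17 replicates 1 and 3, diabetic ZT13 replicate 5 and diabetic ZT17 replicate 3, transcripts of the mitochondrial genome took under 1.1% of reads. In those 5 libraries the 88 genes took 0.543% ± 0.0315 of reads (SD, n = 5), against 0.479% ± 0.0337 in the other 53, and the small nuclear RNA Rn7sk took 2.82% ± 0.887 against 1.53% ± 0.338. In the 3 lens libraries the genes took 0.545% ± 0.0488 of reads. The part of these libraries in the results was not tested beyond the fits without them.

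The levels of the genes were compared per length of the annotated transcript. Per kb, *Rps15*, a 40S protein, was highest with 3728 normalised counts per kb, followed by the stalk protein *Rplp1* with 3236 and the 60S protein *Rpl8* with 3181. The median over the 80 tested genes with an annotated protein-coding transcript was 1101 normalised counts per kb. *Rpl24*, with 18.0, *Rpl13a*, with 127, and the paralog *Rps27l*, with 143, were lowest, and *Rpl24* had a mean of only 12.2 normalised counts. *Rpl24* shares 47.0% of its exon length with another gene on the same strand and *Rpl13a* shares 35.4% with 3 others, and reads there are ambiguous to a gene counter. More than 50% of a transcript's 50-base stretches occurred also in transcripts of other genes for 53 of the 80 genes, so the levels are those of the reads that could be placed. *Rps3* shared 2.96% of its stretches and *Rpl8* 7.86%.

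**Figure D1:**
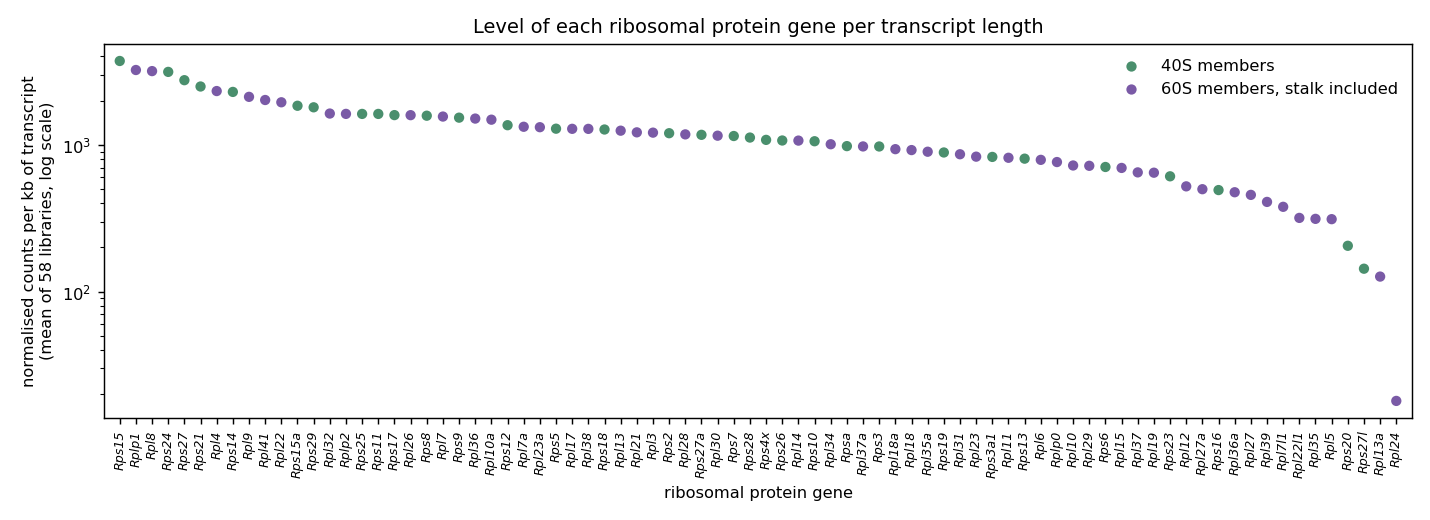
Mean normalised counts per kb of transcript over the 58 libraries (log scale) for the 80 tested genes with an annotated transcript, highest at the left, 40S genes in green and 60S genes in purple. Most genes lie within a factor of a few of the median of 1101, and *Rpl24* stands far below at 18.0.

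Of the 7 genes below the count limit, *Rpl3l*, the form of *Rpl3* known from striated muscle, *Rpl10l* and *Rpl39l*, both known from testis, averaged 1.00, 0.0135 and 0.309 normalised counts. The other 4, *Rpl6l*, *Rps12l1*, *Rps3a2* and *Rps3a3*, are annotated as processed pseudogenes. Retinal paralogs that could be tested were *Rpl7l1*, with 495 normalised counts, *Rps4l* with 359, *Rpl22l1* with 167 and *Rps27l* with 71.5.

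The first comparison asked whether diabetic and control retinas differed over all time points. The test called 2 ribosomal protein genes lower in diabetic retinas, of which *Rps6* is described here, and none higher. *Rps6*, the 40S protein phosphorylated by S6 kinase downstream of mTORC1, had 464, 634 and 823 normalised counts as lowest, median and highest in control and 496, 590 and 711 in diabetic retinas. The diabetic libraries lay within the control range. Its fitted log2 fold change was −0.14 ± 0.04 (SE), a fold of 0.909 (adjusted p = 0.0487, edgeR quasi-likelihood test over 19120 genes), just under the threshold. It stayed past it in 18 of the 58 fits that left out 1 library and in 3 of 9 other settings. A further alternative, the mean of the 6 differences at single time points, also called *Rps6* (adjusted p = 0.0402, edgeR). The call was lost, among others, with DESeq2 size factors, without the filter on low counts and with the filterByExpr filter.

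The 2 of 81 genes stand beside 1.46% of all genes called lower and 1.73% called higher in diabetic retinas. The adjusted p of *Rpl3*, *Rps3* and *Rpl27a* lay between 0.0644 and 0.0732, with log2 differences of −0.12, −0.11 and −0.14. The fitted difference was below 0 for 78 of the 81 genes, with a median of −0.08, whereas over all genes 9416 of 19120 were below 0 and the median was 0.00. An unadjusted p under 0.05 was reached by 29 of the 81 genes (35.8%) and by 16.0% of all genes, and genes of this family vary together from library to library, so their count is no sum of separate observations. All 33 40S genes were below 0, with a median of −0.09, and 45 of the 48 60S genes, with a median of −0.08. The 3 genes above 0 were *Rpl24* (0.08 ± 0.14), *Rpl35a* (0.07 ± 0.09) and *Rpl5* (0.02 ± 0.03), none of them called. In a bulk retina, fewer cells of a type and less RNA per cell cannot be told apart. Markers of retinal cell types differed in both directions. All 5 rod, all 5 cone, all 5 bipolar cell and all 5 microglia markers were below 0, with median log2 differences of −0.09, −0.12, −0.11 and −0.10. Of these, 2 cone markers and 1 microglia marker were called. Of the 5 ganglion cell markers 4 were above 0, with a median of 0.06 and none called, and of the 5 amacrine cell markers 3 were above 0, with a median of 0.01 and *Chat* called higher (0.19 ± 0.06, adjusted p = 0.0381, edgeR). Müller glia and endothelium had medians of −0.01 and −0.02 with no marker called, and the pigment epithelium −0.13 with none called. Of the 2 lens markers tested 1 was called lower, and of the 2 of the cornea and ciliary body none. With the mean of the 6 differences at single time points, 2 pigment epithelium markers, 3 cone markers and 1 rod, 1 bipolar cell and 1 microglia marker were called lower, *Chat* was called higher, and no lens marker was called. The pigment epithelium median was then −0.30, with *Rpe65*, the retinoid isomerase of the visual cycle, at −0.58 ± 0.15 (adjusted p = 0.0140, edgeR). The summed cone markers ranged from 10526 to 12779 normalised counts in control and from 9981 to 12406 in diabetic libraries. The part of these markers in the result was not tested.

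The members with defined roles outside the core of the subunits showed no call. The stalk proteins *Rplp0*, *Rplp1* and *Rplp2* had log2 differences of −0.05 ± 0.04, −0.11 ± 0.06 and −0.04 ± 0.05. *Rpl5* and *Rpl11*, which with 5S RNA can bind Mdm2 and hold back p53 degradation, had 0.02 ± 0.03 and −0.09 ± 0.05. *Rps19* and *Rps14*, whose loss causes anemia in people, had −0.02 ± 0.04 and −0.08 ± 0.04. *Rps27a*, made as a fusion with ubiquitin, had −0.06 ± 0.05, and *Rpsa*, also known as the laminin receptor, had −0.05 ± 0.05. The paralogs *Rpl22l1*, *Rpl7l1*, *Rps4l* and *Rps27l* had differences between −0.09 and −0.00, and *Rpl22* had −0.03 ± 0.04.

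The count of called genes depended on the libraries: without the 3 lens libraries 1 gene was called, which was not *Rps6*, and the median difference was −0.07, and without the 5 low mitochondrial libraries 3 were, *Rps4x* and *Rpl30* among them and *Rps6* not. With 1 library left out the count was between 1 and 6, with 4 genes without diabetic ZT17 replicate 1, 5 without control ZT13 replicate 2, and 6 without diabetic ZT17 replicate 3 or without control ZT1 replicate 4, and 1 gene in each of 38 other such fits. With the mean of the 6 differences at single time points, 3 genes were called, *Rps3* and *Rps6* among them. The share of all genes called in that fit is not given here, so this count is not read as a result about the family.

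At single time points no ribosomal protein gene was called by edgeR or by DESeq2. Of all genes, 0.0209% were called at ZT1 and likewise 0.0209% at ZT5, then 0.00523% at ZT9, 0.251% at ZT17, and 0% at both ZT13 and ZT21. An unadjusted p under 0.05 from edgeR was reached by 17, 3, 0, 2, 5 and 2 of the 81 genes at these times, and from DESeq2 by 19, 3, 0, 2, 5 and 2. The edgeR counts were 21.0%, 3.70%, 0%, 2.47%, 6.17% and 2.47% of the family, against 5.77%, 6.34%, 4.53%, 4.38%, 9.34% and 4.96% of all genes, so that the family's share was above that of all genes at ZT1 and below it at the other times. The median log2 difference over the 6 time points, in order, was −0.15, −0.06, −0.05, −0.01, −0.11 and −0.09, with 79, 67, 58, 42, 72 and 67 genes below 0. The spread among genes was widest at ZT13, from −0.31 to 0.38.

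*Rpl37a*, a 60S protein, had the smallest p at ZT1. Its control libraries had 547, 547, 615, 642 and 710.4 normalised counts and its diabetic libraries 424, 460.3, 467, 511 and 570. The groups overlapped by 1 diabetic library above 2 control libraries, and the log2 difference was −0.33 ± 0.11 (adjusted p = 0.553, edgeR). At ZT17 the control libraries of *Rps6* had 582, 714, 718, 805 and 823 and the diabetic libraries 496, 616, 657 and 711, with a difference of −0.24 ± 0.10 (adjusted p = 0.419, edgeR).

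**Figure D2:**
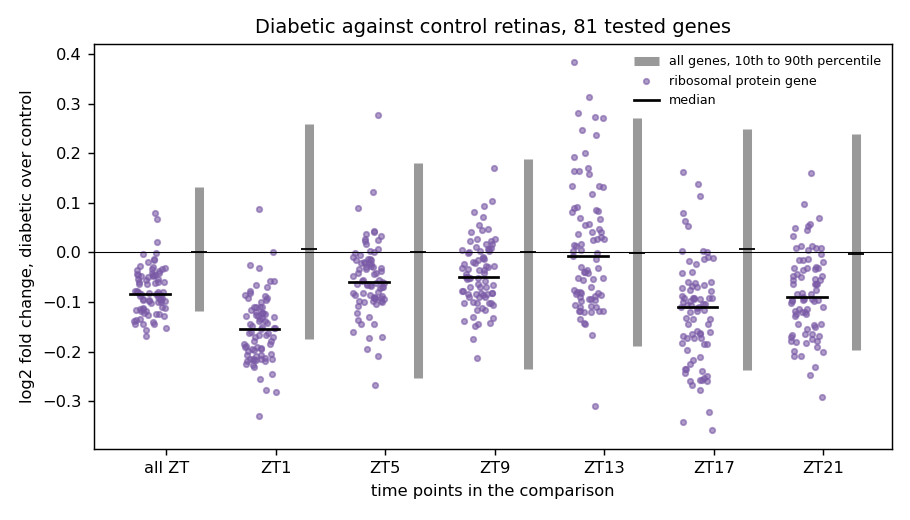
Log2 fold change, diabetic over control, of the 81 tested genes over all time points and at each time point (points), with their median (black line), beside the 10th to 90th percentile range and the median of all 19120 genes (grey bar). The genes lie mostly below 0 at ZT1 (median −0.15) and ZT17 (−0.11) and around 0 at ZT13 (−0.01).

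Summed over the 88 genes, the share of reads was 0.498% ± 0.0393 in control (SD, n = 30) and 0.471% ± 0.0310 in diabetic retinas (n = 28). The highest group means were at ZT17, with 0.535% ± 0.0408 in control (n = 5) and 0.492% ± 0.0547 in diabetic retinas (n = 4). The control libraries at ZT17 had 0.475%, 0.515%, 0.547%, 0.561% and 0.578%, the last 3 of them from the lens and low mitochondrial libraries. The diabetic libraries at ZT17 had 0.413%, 0.498%, 0.529% and 0.530%, the highest being the low mitochondrial library. At ZT1 the control libraries had 0.444%, 0.448%, 0.512%, 0.524% and 0.593%, the highest being the lens library, and the diabetic libraries 0.437% to 0.492%.

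**Figure D3:**
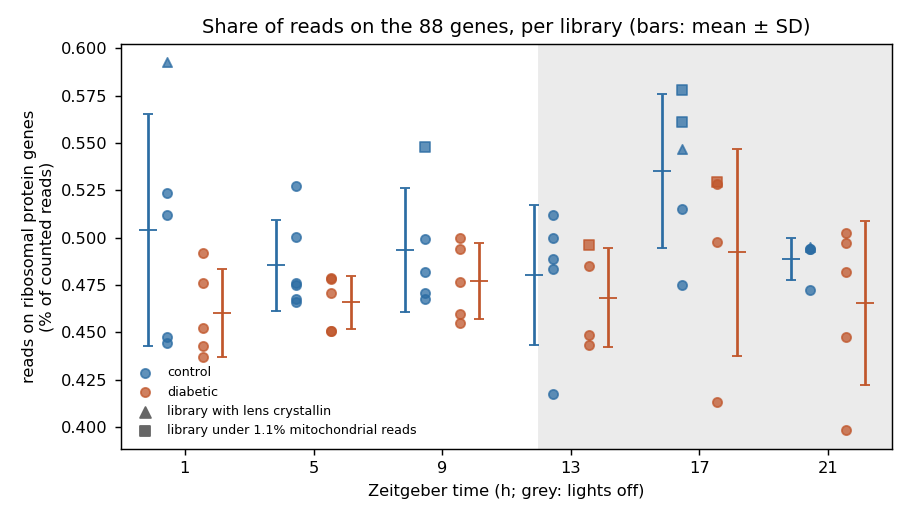
Percent of counted reads on the 88 genes in each library by Zeitgeber time (grey: lights off), control in blue and diabetic in orange, with mean ± SD as bars; triangles are lens libraries and squares libraries under 1.1% mitochondrial reads. The 2 control libraries marked as squares at ZT17 are the highest of their group, at 0.561% and 0.578%.

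The second comparison asked how the genes differed between the middle of the night (ZT17) and the middle of the day (ZT5). In control retinas 27 of 81 genes were higher at ZT17, 8 of the 40S and 19 of the 60S subunit, and none was lower, beside 7.6% of all genes called higher and 8.14% called lower. The median log2 difference was 0.21, against −0.03 over all genes, and 71 genes were above 0. *Rpl23a*, a 60S protein at the tunnel exit, had 591 to 815 normalised counts at ZT5, with a median of 696 (n = 6). At ZT17 its 5 libraries had 765, 774, 903, 1065 and 1260. The highest ZT5 libraries exceeded the lowest ZT17 libraries, and the log2 difference was 0.44 ± 0.13 (adjusted p = 0.0143, edgeR), a fold of 1.36.

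The largest differences were those of *Rps29* and *Rps28*, 2 of the smallest 40S proteins. *Rps29* had 456, 611 and 837 normalised counts as lowest, median and highest at ZT5, and 645, 911, 1063, 1131 and 1324 at ZT17. Its log2 difference was 0.65 ± 0.23 (adjusted p = 0.0488, edgeR). *Rps28* had 176, 280.3 and 334 at ZT5 and 306, 379, 438, 439 and 553 at ZT17, with 0.61 ± 0.20 (adjusted p = 0.0318, edgeR). For both genes the lowest ZT17 library, replicate 2, lay within the ZT5 range and the others above it. Among those others, replicates 1 and 3 were low mitochondrial libraries and replicate 5 was a lens library. With 1 library left out, *Rps29* stayed called in 32 of 58 fits and *Rps28* in 53. Neither was called without ZT17 replicate 3.

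Among the members with named roles, *Rplp1* rose by 0.41 ± 0.14 (adjusted p = 0.0410, edgeR) and *Rplp2* by 0.31 ± 0.10 (adjusted p = 0.0285, edgeR), while *Rplp0*, which anchors them, had 0.20 ± 0.08 (adjusted p = 0.0809, edgeR). *Rplp2* had 584 to 698 normalised counts at ZT5 and 694, 702, 756, 898 and 954 at ZT17, so that its groups overlapped by 1 library on each side. *Rpl41*, the shortest of the ribosomal proteins, rose by 0.40 ± 0.13, *Rpl11* by 0.34 ± 0.10, *Rpsa* by 0.31 ± 0.10, *Rpl17* by 0.42 ± 0.13 and *Rpl7a* by 0.29 ± 0.09, with adjusted p from 0.0166 to 0.0363 by edgeR. *Rps6*, *Rps14*, *Rpl3* and *Rps27* had 0.21, 0.20, 0.17 and 0.32 and were not called, and *Rpl5* and *Rpl22* had −0.07 ± 0.08 and −0.01 ± 0.09. Among genes with a mean of 100 or more, the paralog *Rpl22l1* had the lowest difference (−0.32 ± 0.27), followed by *Rpl39* (−0.23 ± 0.25). A pyrimidine run near the start was present in 11 of the 21 called genes with a sequence and in 15 of the 39 others.

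In diabetic retinas no gene was called between ZT17 and ZT5 by edgeR or DESeq2, with 7.76% of all genes called in either direction by edgeR. An unadjusted p under 0.05 was reached by 14 of the 81 genes (17.3%) by each tool, against 21.8% of all genes by edgeR and 21.3% by DESeq2. The median log2 difference was 0.16, against −0.01 over all genes, and 75 genes were above 0. *Rpl23*, a 60S protein at the face toward the 40S subunit, had the smallest p, with 0.28 ± 0.11 (adjusted p = 0.0906, edgeR). *Rps29*, with 0.40 ± 0.26, and *Rpl36a*, with 0.37 ± 0.14, had the largest differences, and *Rpl22l1*, with −0.36 ± 0.29, and *Rpl10a*, with −0.18 ± 0.09, the lowest among genes with a mean of 100 or more. *Rps29* had 518, 528, 580, 586 and 792 normalised counts at ZT5 and 538, 782, 903 and 981 at ZT17, so that 3 of the 4 ZT17 libraries lay above all but 1 of the ZT5 libraries.

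The genotypes were not shown to differ in this night to day difference. A test of the difference of the differences, chosen after seeing the data, called no ribosomal protein gene and 0% of all genes, and no ribosomal protein gene had an unadjusted p under 0.05, against 4.09% of all genes. The median of the fitted values was −0.06 (diabetic minus control), with a range from −0.30 to 0.22 and standard errors of 0.08 to 0.48.

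**Figure D4:**
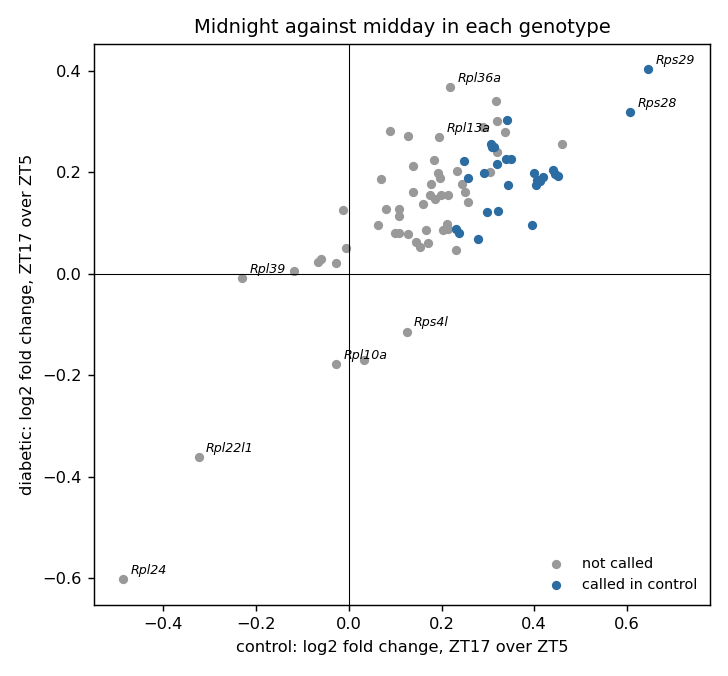
Log2 fold change, ZT17 over ZT5, of each of the 81 genes in control (horizontal) and diabetic retinas (vertical), with the 27 genes called in control in blue. Most genes are above 0 on both axes, *Rps29* has the highest value on both, at 0.65 and 0.40, and *Rpl22l1* and *Rpl24* are below 0 on both.

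The control count rested on a few libraries. It was 1 (*Rpl17*) without ZT17 replicate 3, 4 (*Rpl27*, *Rpl34*, *Rplp2* and *Rps16*) without ZT17 replicate 1, 6 without ZT5 replicate 1, 8 without ZT5 replicate 2, 11 without ZT5 replicate 3 and 14 without ZT5 replicate 6. Without the 5 low mitochondrial libraries *Rpl27*, *Rpl34* and *Rps13* were called, and the median difference was 0.17 with 77 genes above 0; in diabetic retinas it was 0.10 with 75 above 0, and *Rpl10a* was called. Without the 3 lens libraries 20 genes were called in control and the median was 0.22. Markers of the pigment epithelium, which adjoins the retina, moved too: 4 of 5 were called higher at ZT17 than at ZT5 in each genotype, with a median log2 difference of 1.01 in control and 2.04 in diabetic retinas, and their sum ranged from 429 to 4082 normalised counts over the control libraries and from 353 to 4523 over the diabetic ones. All 5 bipolar cell markers were called higher at ZT17 in control, with a median of 0.40, and 2 of 5 in diabetic retinas, with 0.35. In control 1 of 5 Müller glia, 1 of 5 amacrine cell and 1 of 5 endothelial markers were called higher, while 1 of 5 rod, 2 of 5 cone and 1 of 5 endothelial markers were called lower, among them the cone arrestin *Arr3* (−0.45 ± 0.09, adjusted p = 0.000573, edgeR). Of the 2 lens markers tested, 1 was called higher in control, *Cryaa*. In diabetic retinas 1 of 5 endothelial markers and 1 of the 2 markers tested of the cornea and ciliary body were called higher, while 1 of 5 rod and 1 of 5 cone markers were called lower. No ganglion cell or microglia marker was called in either genotype. The part of these markers in the result was not tested.

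The third question was whether the genes changed over the whole day. The test of any difference among the 6 time points called no gene in control retinas by edgeR, beside 9.48% of all genes called. An unadjusted p under 0.05 was reached by 14 of the 81 genes (17.3%) and by 22.1% of all genes. DESeq2 called *Rpl27* and *Rpl34* of the 81, beside 2075 of the 19112 genes it tested. *Rpl23a* had the smallest p (adjusted p = 0.0899, edgeR), followed by *Rpl11* and *Rpl17*. The group mean was highest at ZT17 for 67 of 81 genes in control and lowest at ZT5 for 42. In diabetic retinas the mean was highest at ZT17 for 54 genes and lowest at ZT1 for 46.

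In diabetic retinas the same test called *Rpl10a*, a 60S protein of the L1 stalk, beside 10.7% of all genes (adjusted p = 0.00842, edgeR). Its group means were 1117 ± 55.2, 1105 ± 73.4 and 1216 ± 151 normalised counts at ZT1, ZT5 and ZT9 (SD, n = 5 each), and 977 ± 112, 982 ± 121 and 955 ± 91.9 at ZT13, ZT17 and ZT21 (n = 4, 4 and 5). *Rpl10a* was thus higher in the light than in the dark, whereas most of the family had its highest mean at ZT17. At ZT9 the diabetic libraries ranged from 1065 to 1432 and at ZT21 from 796 to 1025, without overlap. In control retinas *Rpl10a* averaged 1199 ± 185 at ZT9 and 1014 ± 70.3 at ZT21, and was not called. *Rpl10a* stayed called in diabetic retinas without the low mitochondrial libraries.

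Rhythms with a period of 24 h were sought with an empirical JTK_CYCLE test, where rhythmic meant an unadjusted p under 0.05 and a ratio of more than 1.25 of the highest to the lowest library. Of the 81 genes, 5 met this in the control group and 5 in the diabetic group, or 6.17% each, beside 21.8% of all genes in control and 23.9% in diabetic retinas. Both shares of the family lay below those of all genes. In control these were *Rpl11*, *Rpl17*, *Rpl19*, *Rpl27* and *Rpl37a*, all 60S proteins, with acrophases (the fitted time of the peak) between ZT17.5 and ZT21.0. None of them passed after adjustment over all genes, the smallest adjusted p being 0.133. In diabetic retinas *Rpl10a* had an acrophase at ZT6.31 ± 1.00 (SE) and an adjusted p of 0.0332 (empirical permutation p), and *Rpl23*, *Rpl37*, *Rps16* and *Rps20* had acrophases between ZT14.9 and ZT17.4 and adjusted p of 0.0934 or more.

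The amplitude relative to the mean had a median of 6.80% over the 81 genes in control and 6.00% in diabetic retinas, against 7.07% and 7.26% over all genes. *Rpl17* had a relative amplitude of 11.7% and *Rpl27* of 12.4% in control, and *Rpl37* of 14.3% in diabetic retinas. The fitted peak, in genes called or not, lay between ZT13 and ZT21 for 66 of the 81 in control and for 68 in the diabetic group. Over all 19120 genes these counts were 7191 and 7379. A test of whether the 24 h rhythm differed between the genotypes called no ribosomal protein gene and 0% of all genes, with *Rpl37a* the 1 member at an unadjusted p under 0.05 (edgeR; adjusted p = 1.00), against 3.66% of all genes. Without the ZT17 libraries none was called in control, and *Rpl10a* alone in diabetic retinas. The counts also moved when the libraries of other time points were left out. With 1 library left out the count was between 0 (without ZT17 replicate 1 or 3) and 20 (without ZT9 replicate 4) in control, and between 2 (without ZT17 replicate 3 or 5) and 11 (without ZT17 replicate 4 or ZT21 replicate 2) in diabetic retinas.

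**Figure D5:**
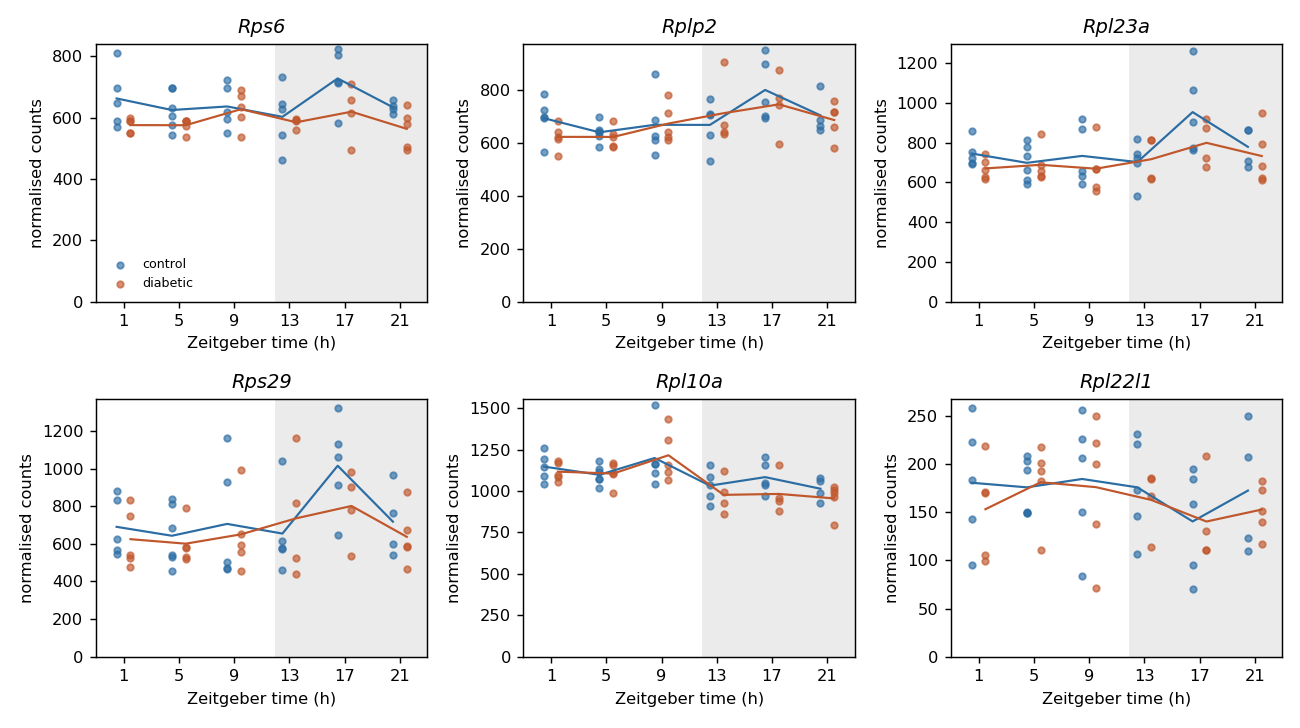
Normalised counts of 6 genes in each library by Zeitgeber time (grey: lights off), control in blue and diabetic in orange, with lines through the group means. *Rps6* runs lower in diabetic retinas, *Rplp2*, *Rpl23a* and *Rps29* peak at ZT17 in control, and *Rpl10a* drops in the dark, to 955 at ZT21 in diabetic retinas.

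Other genes of protein synthesis were read in the same fits. Of 22 translation factors and other genes with TOP mRNAs, 4 were lower in diabetic retinas and none higher, beside 1.46% of all genes lower and 1.73% higher, with 20 below 0 and a median log2 difference of −0.07. *Tpt1*, the translationally controlled tumour protein, had −0.15 ± 0.04 (adjusted p = 0.0117, edgeR), and *Eef1g*, a subunit of elongation factor 1, had −0.12 ± 0.03 (adjusted p = 0.0153, edgeR). None of 29 ribosome biogenesis genes and none of 18 genes of the mTORC1 and LARP1 pathway was called, with medians of −0.01 and 0.03. Among 77 tested genes of the mitochondrial ribosome, the set most like the cytosolic one, 3 were lower and none higher, beside the same shares of all genes, with 66 below 0 and a median of −0.04; *Mrpl57* had −0.16 ± 0.04 (adjusted p = 0.00738, edgeR).

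Between ZT17 and ZT5 in control, 3 of the 22 TOP genes were higher, among them the elongation factor *Eef1a1* (0.27 ± 0.09, adjusted p = 0.0245, edgeR). Of the 29 ribosome biogenesis genes 2 were higher and 8 lower, beside 7.6% and 8.14% of all genes, with a median of −0.07, where *Nop58*, of the box C/D particle, had −0.51 ± 0.09 and the 40S assembly factor *Tsr1* had −0.58 ± 0.10. Of the mitochondrial ribosomal protein genes 5 were higher and 6 lower, with a median of −0.01, and of the mTORC1 and LARP1 genes 1 was higher, *Eif4ebp2*, and 2 lower, *Rps6kb1* among them. By the rhythm test 11 of 29 ribosome biogenesis genes were called in control and 19 in diabetic retinas, beside 21.8% and 23.9% of all genes. Of the 22 TOP genes it called 6 in control and 1 in diabetic retinas, and of the 77 mitochondrial ribosomal protein genes 11 and 18. The test of a rhythm difference between the genotypes called no gene of these lists. Over all 29 biogenesis genes, called or not, the median acrophase was ZT6.85 in control and ZT5.94 in diabetic retinas. Over all 81 ribosomal protein genes, called or not, it was ZT18.5 and ZT15.4. These medians treat the hours as plain numbers, not as positions around the clock. They include genes without a usable peak time, such as *Rpl39* in diabetic retinas, with a standard error of 296 h. No ribosomal protein gene was called for a rhythm difference between the genotypes.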

How the data were processed

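Total RNA of single retinas was depleted of ribosomal RNA and sequenced as pairs of reads. The authors aligned with STAR 2.7.4a to GRCm38.p5 with Gencode M15 and counted reads per gene with HTSeq 0.11.1, and the deposited table holds these raw counts, not normalized, for 52459 symbols and 58 libraries (15226 symbols without a read). Samples were grouped by the genotype and time in their titles. Libraries are called biological replicates by the submitters.

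Genes with a median above 4 counts after division by DESeq2 size factors were tested (19120). Counts were tested with edgeR 4.0.16 (quasi-likelihood, TMM factors), with genotype alone for all time points and 12 groups otherwise, and with cosine and sine terms for the rhythm difference. Adjusted p-values are Benjamini-Hochberg over all genes tested, with a threshold of 0.05. Rhythms used Kendall's tau against 30 waveforms and p-values from 1000000 shuffled series. DESeq2 and limma served as alternatives; the fits were tested on simulated data. Sequences are from RefSeq (GRCm38.p6), positions and overlaps from Gencode M21 (GRCm38). No p is given over the family as a whole. For 1 called gene no values are reported here. No label ties a replicate number to a shared batch or day, so the numbers were not used as pairs.

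The genes and lists were chosen with earlier results of these data known. Genes were named by fixed roles, by the extremes of level and of the ZT17 to ZT5 difference, and by the 5 smallest p in each of 4 tests; from other lists at most 2 per comparison. *Rps13*, *Rps4x*, *Rpl30*, *Rpl27*, *Rps16*, *Rps20*, *Rpl35a*, *Rpl14*, *Rpl28*, *Rpl35*, *Rps10* and *Chat* were named after their values were seen.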

Additional observations from a re-analysis of the deposited data

Results flagged for a closer look

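Dixon's test was run on the share of reads and on 3 called genes, *Rps6* and *Rpl10a* among them, in 48 groups of 4 to 6 libraries, and 4 stood out; chance gives about 1 in 20 groups. The share of reads on the ribosomal protein genes was 0.472% in control ZT21 replicate 1, against 0.494% to 0.495% in the other 3 libraries of its group. *Rpl10a* had 1518 normalised counts in control ZT9 replicate 4, a low mitochondrial library, against 1042 to 1164 in the others. *Rpl10a* had 796 in diabetic ZT21 replicate 2, the library with the lowest share of reads on these genes, against 961 to 1025 in the others. *Rps6* had 561 in diabetic ZT13 replicate 4, against 591 to 595 in the others.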

How the results depend on the processing

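The direction of the family held in every alternative run: 74 to 78 of 81 genes lay below 0 between the genotypes, with medians of −0.09 to −0.07 and, with 1 library left out, −0.10 to −0.07, and no member was called at a single time point or for a rhythm difference. The count between the genotypes was 1 with DESeq2 size factors, without a count filter, with filterByExpr and without the lens libraries, 4 with a replicate block, 5 with correction for GC content and length, 7 with both, and 1 to 6 with 1 library left out. Same-numbered libraries of different groups correlated by 0.0667 on average (289 pairs, 42.9% above 0.1), against −0.0153 for other pairs (18.7% above 0.1); not every pair was above 0.1 and no label gives the number a meaning, so it was not used as a pair. *Rps6* lost its call between the genotypes with the replicate block. Over time points in control, the count was 2 with DESeq2, 1 with the GC and length correction, 10 with the replicate block, 12 with both and 0 to 2 with 1 library left out. In diabetic retinas it was 2 with each of these 4, and 1 to 2 with 1 library left out (2 without ZT17 replicate 1, ZT13 replicate 4 or ZT5 replicate 5). ZT17 against ZT5 in control gave 16 genes without a filter, 3 without the low mitochondrial libraries and 1 to 36 with 1 library left out; in diabetic retinas it gave 1 with the replicate block and GC correction, 1 without the low mitochondrial libraries and 0 to 3 with 1 library left out (1 without ZT17 replicate 1, 3 without ZT17 replicate 4). Rhythmic genes in control were 0 after adjustment, 3 with the GC and length correction, 13, 3, 8, 12 and 0 without ZT1, ZT5, ZT9, ZT13 and ZT17, 2 without the lens and 9 without the low mitochondrial libraries, and 19 unadjusted, 1 adjusted and 16 adjusted with the replicate block by the cosine test; leaving out 1 library gave 0 to 20, with 3 without ZT5 replicate 2 or 6, ZT17 replicate 2 or 5 or ZT21 replicate 4, 8 without ZT21 replicate 1, 9 without ZT1 replicate 3 or 4 or ZT13 replicate 4, 10 without ZT13 replicate 2, 11 without ZT17 replicate 4 and 13 without ZT9 replicate 5. In diabetic retinas they were 1 after adjustment, 3, 3 and 1 without ZT1, ZT5 and ZT17, 2 without the low mitochondrial libraries, and 13, 3 and 3 by the cosine test; leaving out 1 library gave 2 to 11, with 8 without ZT13 replicate 3 or ZT1 replicate 5. The causes were not tested. The exclusions of libraries, and the block with the GC correction, were chosen after seeing the data. The share of reads moved by less than the spread between libraries with tested non-mitochondrial reads as the base (0.506% and 0.479%). Leaving out 1 library moved it to 0.495% to 0.501% in control and 0.469% to 0.474% in diabetic retinas. *Rpl24*, at 12.2 normalised counts, had a standard error of 0.14 between the genotypes, larger in size than the family median of −0.08. The smallest difference that could be detected for it was not tested.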
